A study of Mus musculus with 17 samples.

Results

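The replication-dependent histone genes encode the bulk of the histone proteins that package new DNA. They were chosen by name: every gene whose symbol in the GENCODE M21 mouse annotation starts with Hist1h, Hist2h, Hist3h or Hist4h, with 3 pseudogenes left out. The annotation holds 67 such genes, and 53 of them were found by Ensembl ID among the 37576 gene IDs of the study. These were 6 H1 genes, 16 H2A genes, 13 H2B genes, 6 of the 12 H3 genes and 12 H4 genes. The Hist1 cluster on mouse chromosome 13 held 43 of them, the Hist2 cluster on chromosome 3 held 8 and the Hist3 cluster on chromosome 11 held 2. The other 14 genes had no row under their current ID.

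The study compared cells that differ in Usp28, a deubiquitinase that removes ubiquitin from other proteins. RNA was sequenced from fibroblasts of C57bl/6 mouse embryos of stage E13.5 (MEFs), and all cells of all groups carried pRetroSuper-shp19ARF, a retroviral short hairpin RNA used to immortalize them. The immortalized set had 3 libraries each of -/-, +/- and +/+ cells. The Ras set, in which the cells were also transformed with HRasG12V (an activated HRas), had 2 libraries each of -/- cells with a GFP vector, +/- cells with GFP, +/+ cells with a USP28 vector and +/+ cells with GFP. The last of these is the control of the Ras set and is called Ras +/+ here. The labels do not say whether the libraries of a group came from separate embryos or cell pools, and the design text speaks of biological triplicates for the first set and of duplicates for the second. The p-values therefore measure the spread between these libraries only.

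Histone mRNAs of these genes are made mainly in S phase, when DNA is copied. Most of them are cut just behind a short RNA hairpin, the histone stem-loop, and carry no poly(A) tail. The stem-loop is bound by the protein SLBP, which takes part in the processing, translation and decay of the mRNA. Part of the transcripts of some of these genes run past the stem-loop and are polyadenylated, which is known above all from cells that have stopped dividing. The libraries here were made from RNA selected for poly(A) tails, so the reads of these genes came from polyadenylated forms, from carry-over of other RNA, or from both, and the files do not tell these apart.

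The stem-loop is the sequence that sets these transcripts apart from other mRNAs, and it is shown here for the genes on which the results turn. The annotated transcripts (GENCODE M21, GRCm38, matched by gene ID) were searched, over their whole length and on their own strand, for the 16 letters that Hist1h1c carries in capitals, with any base at position 10 of the 16. This motif was present in 26 of the 53 genes (49.1%), against 35 of 21901 protein-coding genes (0.160%). Capitals mark the stem-loop in the following windows of 30 bases.
Hist1h1c (chr13:23739505-23739534, plus strand): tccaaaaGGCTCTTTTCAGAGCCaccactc
Hist1h1e (chr13:23621775-23621804, minus strand): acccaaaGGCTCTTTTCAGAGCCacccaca
Hist2h2aa2 (chr3:96239777-96239806, minus strand): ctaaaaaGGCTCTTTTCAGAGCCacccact
Hist1h2bg (chr13:23571836-23571865, plus strand): acccaaaGGCTCTTTTCAGAGCCacccata
Hist1h2bk (chr13:22036293-22036322, plus strand): caccaaaGGCTCTTTTAAGAGCCactaaac
Hist2h3c2 (chr3:96238478-96238507, minus strand): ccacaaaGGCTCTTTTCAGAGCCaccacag
Hist1h3b (chr13:23752813-23752842, plus strand): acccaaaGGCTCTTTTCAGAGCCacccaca
Hist1h4d (chr13:23581943-23581972, plus strand): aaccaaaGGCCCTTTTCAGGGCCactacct
Hist1h4i (chr13:22040959-22040988, minus strand): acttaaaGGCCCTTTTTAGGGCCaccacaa
Hist1h4b (chr13:23757359-23757388, plus strand): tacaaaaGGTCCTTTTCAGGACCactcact
In all 26 genes of the H1, H2A, H2B and H3 classes with a stem-loop, the stem was GGCTC paired with GAGCC. The H4 genes had a different stem: 10 of the 12 carried GGCCC or GGTCC, as in Hist1h4d, Hist1h4i and Hist1h4b. With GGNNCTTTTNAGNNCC, which takes in these stems, 36 of the 53 genes (67.9%) held a stem-loop, against 72 protein-coding genes (0.329%). The annotated transcripts of 19 genes ended within 100 bases of it. In 17 genes an annotated transcript ran farther, such as Hist1h1c, whose longest transcript went on for 840 bases behind the stem-loop, and Hist1h1e, where it went on for 1153 bases. No stem-loop was found in the transcripts of the remaining 17 genes, and in 6 of them the longest transcript was no longer than the coding region.

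The promoters of histone genes are short and share a few elements: a TATA box, CCAAT boxes and, in many H2A and H2B genes, an octamer. The RefSeq promoter table (GRCm38.p6, 250 bases before to 50 bases after the start of a gene) held 49 of the 53 genes. CCAAT on either strand was present in 41 of the 49 (83.7%), against 37.9% of 27025 promoters. TATAAA on either strand was present in 31 (63.3%), against 14.2% of all promoters. The octamer ATTTGCAT on either strand was present in 11 (22.4%), against 1.75%. All 38 matched genes of the other 4 classes held CCAAT, while 3 of 11 H4 promoters did. The octamer was found in 7 of 16 H2A and 4 of 11 H2B promoters and in none of the matched H1, H3 and H4 promoters. The 160 bases before the start are shown for 1 gene that was higher in Ras -/- cells and 4 that were lower in several Ras comparisons, with the 3 motifs in capitals on either strand.
Hist1h1c (chr13:23738647-23738806, plus strand): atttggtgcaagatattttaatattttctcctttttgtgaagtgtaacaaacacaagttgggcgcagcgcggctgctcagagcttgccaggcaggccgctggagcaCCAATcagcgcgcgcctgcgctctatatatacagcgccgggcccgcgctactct
Hist1h1e (chr13:23622559-23622718, minus strand): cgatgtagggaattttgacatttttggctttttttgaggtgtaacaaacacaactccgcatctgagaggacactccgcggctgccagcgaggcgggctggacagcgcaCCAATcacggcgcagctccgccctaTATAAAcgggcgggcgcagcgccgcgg
Hist1h2bb (chr13:23746574-23746733, plus strand): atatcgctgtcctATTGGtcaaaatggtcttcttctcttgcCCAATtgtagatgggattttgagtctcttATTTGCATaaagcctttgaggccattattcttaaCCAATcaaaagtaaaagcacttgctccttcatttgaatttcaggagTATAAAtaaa
Hist1h3b (chr13:23752185-23752344, plus strand): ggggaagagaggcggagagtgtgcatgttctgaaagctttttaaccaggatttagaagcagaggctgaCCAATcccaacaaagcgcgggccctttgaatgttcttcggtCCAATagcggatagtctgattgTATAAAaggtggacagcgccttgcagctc
Hist1h4d (chr13:23581408-23581567, plus strand): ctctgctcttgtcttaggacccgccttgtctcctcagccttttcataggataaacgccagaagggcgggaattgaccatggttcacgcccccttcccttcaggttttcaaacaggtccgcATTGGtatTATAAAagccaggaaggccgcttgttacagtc
In this stretch Hist1h1e, Hist1h2bb, Hist1h3b and Hist1h4d held both CCAAT (or its complement ATTGG) and TATAAA, Hist1h2bb also held the octamer, and Hist1h1c held CCAAT alone of the 3 motifs. A match describes the letters and does not show that a factor binds there.

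The levels are group levels, in RPM (the reads of a gene per 1000000 reads of its group), rebuilt from the authors' deposited log2 values. The files hold no values of single libraries, so no spread of a single gene was measured. The standard error (SE) beside each log2 ratio is the one implied by the read counts and by 1 common dispersion per comparison, which was fitted to the deposited p-values. Expressed as a variation between libraries, this dispersion was 14.4% of the level in the Ras -/- comparison, 14.3% in Ras +/-, 12.7% with USP28, 21.2% in immortalized -/- and 32.5% in immortalized +/-. The summed depth of a group was 11.4 to 13.95 times 1000000 reads, and 1 read was worth 0.0717 to 0.0880 RPM. A gene was called higher or lower where its p-value, adjusted by the Benjamini-Hochberg method over all genes whose mean level reached 1 RPM, was under 0.05. Usp28 itself was lower in Ras -/- cells, at 14.8 RPM against 26.5 RPM in Ras +/+ cells (log2 ratio -0.83 ± 0.25 SE, Benjamini-Hochberg adjusted p = 0.00397). In Ras +/- cells it was at 18.6 RPM, and in the immortalized set at 13.3 RPM in -/- cells and 9.96 RPM in +/- cells, against 16.5 RPM in +/+ cells. It was not called in these comparisons, nor with USP28. In cells with the USP28 vector the mouse Usp28 gene was at 26.4 RPM, against 26.5 RPM in Ras +/+ cells, so the vector was not seen in this count.

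The cells expressed fibroblast genes in every group: 8 markers summed to 9770 to 45121 RPM, although Thy1 was at 0.502 RPM or less in the Ras groups. The +/- cells of both sets also expressed markers of epithelium and mesothelium, while Epcam and Ptprc, which define epithelium and leukocytes, were at 0.264 RPM or less in all 7 groups. Leukocyte markers, mostly Csf1r, summed to 11.3 to 26.4 RPM. In bulk RNA, fewer cells of a type and less RNA per cell cannot be told apart.

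In the Ras set the histone genes were highest in +/+ cells. Ras +/+ was the highest of the 4 groups for 41 of the 52 genes with any read, Ras -/- for 9, and Ras +/- and the USP28 cells for 1 gene each. Summed over the 53 genes, the level was 168 RPM in Ras -/- cells, 84.6 RPM in Ras +/- cells, 82.6 RPM in the USP28 cells and 204.9 RPM in Ras +/+ cells. The 95% counting intervals of these sums, which cover counting error only, were 161 to 175 RPM, 79.7 to 89.7 RPM, 77.8 to 87.6 RPM and 197 to 213 RPM. Ras -/- thus lay nearer to Ras +/+ than the other groups did. The immortalized set had another order: 103 RPM in -/- cells, 225.5 RPM in +/- cells and 174 RPM in +/+ cells. There +/- cells had the highest level for 44 of the 52 genes with any read.

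**Figure D1:**
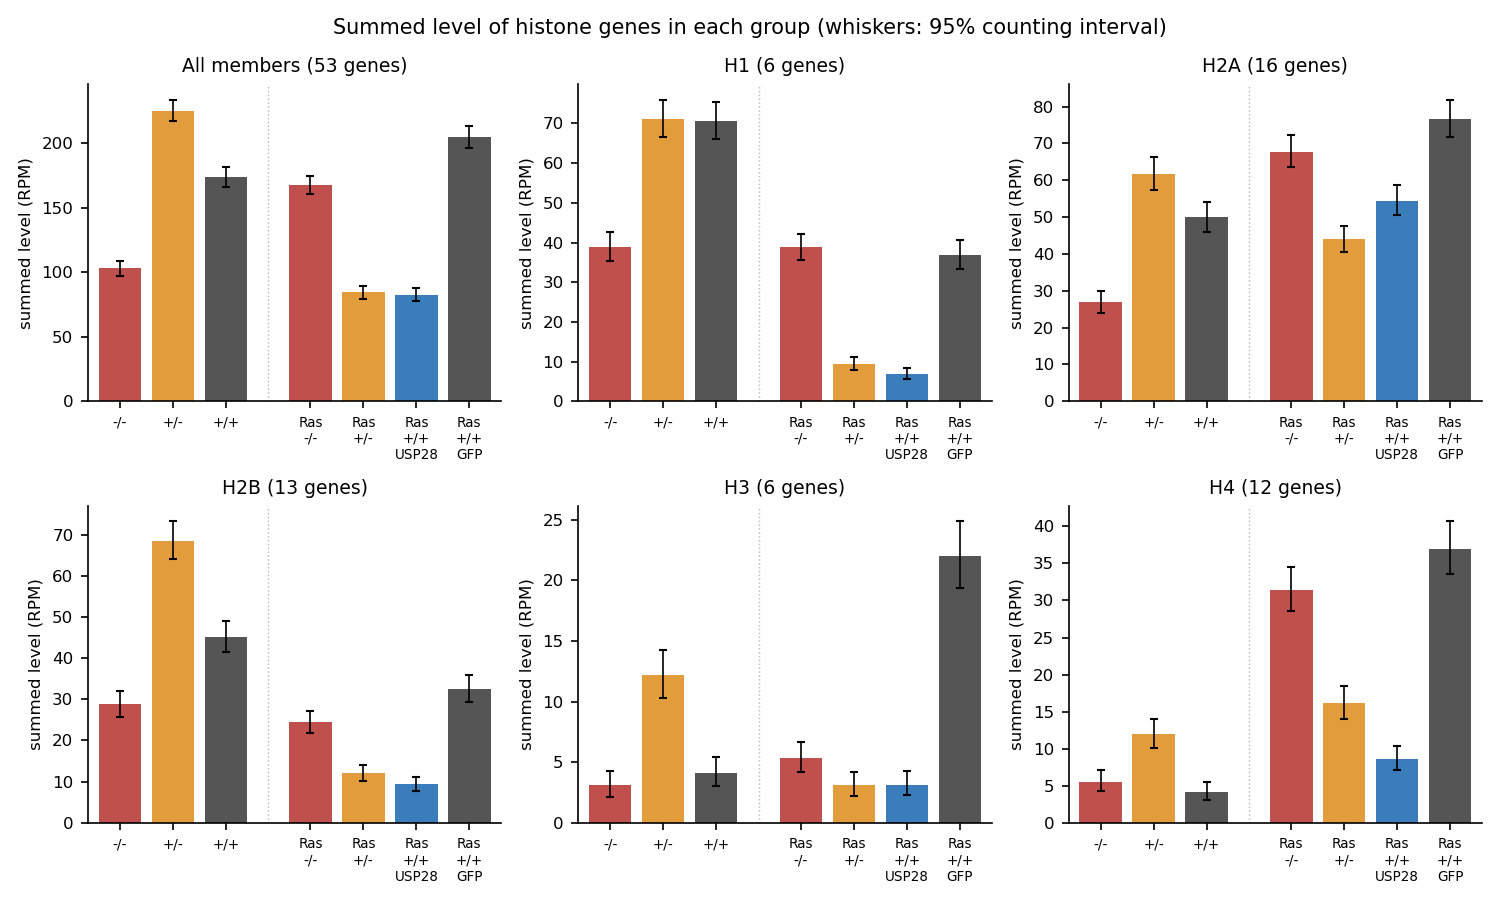
Summed level in RPM (vertical axes) of the 53 histone genes and of each class in the 7 groups, with whiskers for the 95% counting interval. In the Ras set the sum over all genes was 168 RPM in -/- cells, 84.6 RPM in +/- cells and 82.6 RPM with USP28, against 204.9 RPM in +/+ cells with GFP, and H3 had the lowest ratio to +/+ in each of the 3 Ras comparisons.

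Other RNAs without a poly(A) tail were high in Ras +/+ cells too. Of 9 such RNAs in the tables, Rn7sk, Rmrp and Rpph1, which are made by RNA polymerase III, and Scarna2, a small RNA of Cajal bodies, passed the level filter. They summed, with the other 5, to 4.59 RPM in Ras -/- cells, 15.3 RPM in Ras +/- cells and 4.85 RPM with USP28, against 59.3, 59.2 and 58.7 RPM in Ras +/+ cells. Rn7sk was at 1.58 RPM in Ras -/- cells, 7.54 RPM in Ras +/- cells and 3.73 RPM with USP28, against 27.1 RPM in Ras +/+ cells. All 4 were called lower with USP28 and in Ras -/- cells, and 3 of 4 in Ras +/- cells, with Scarna2 not called. Among all genes tested 0.997%, 12.4% and 16.7% were lower in these comparisons. With USP28, Rmrp (0.373 RPM), Rpph1 (0.373 RPM) and Scarna2 (0.298 RPM) passed the filter only through Ras +/+ cells. So did Rmrp (0.573 RPM) and Scarna2 (0.430 RPM) in Ras -/- cells, and Scarna2 (0.832 RPM) in Ras +/- cells. After Ras +/+, the highest sum of these 9 RNAs was that of Ras +/- cells, and the highest histone sum was that of Ras -/- cells. In the immortalized set the sum was 0.615 RPM in -/- cells and 0.482 RPM in +/- cells, against 1.63 RPM in +/+ cells. The part of poly(A) selection in the histone levels was not tested. The labels name 2 library kits without assigning them to libraries, so kit and group cannot be told apart.

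Across all 7 groups, and per kilobase of annotated exon, the highest gene of each class was Hist1h1c for H1 with a mean of 19.7 RPM per kilobase, Hist2h2aa2 for H2A with 12.4, Hist1h2bc for H2B with 9.90, Hist1h4m for H4 with 6.103 and Hist2h3c2 for H3 with 2.55. These genes did not lead in every group: per kilobase Hist1h1c was the highest of its class in 6 of the 7 groups, Hist1h2bc in 5, Hist2h2aa2 and Hist1h4m in 4 each and Hist2h3c2 in 2. In Ras +/+ cells, for example, Hist1h2af led the H2A genes with 17.4 RPM per kilobase and Hist1h1b the H1 genes with 8.36. By level not divided by length, Hist1h1c held 77.3% of the H1 sum in Ras -/- cells, 49.4% in Ras +/- cells and 58.1% in the USP28 cells, against 32.5% in Ras +/+ cells. In the immortalized set it made up 92.5% in -/- cells and 88.0% in +/- cells, against 93.6% in +/+ cells. Hist1h1c, Hist1h2bc, Hist1h2ac, Hist1h2bk and Hist2h2be are 5 genes whose human counterparts are known to make a polyadenylated form.

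**Figure D2:**
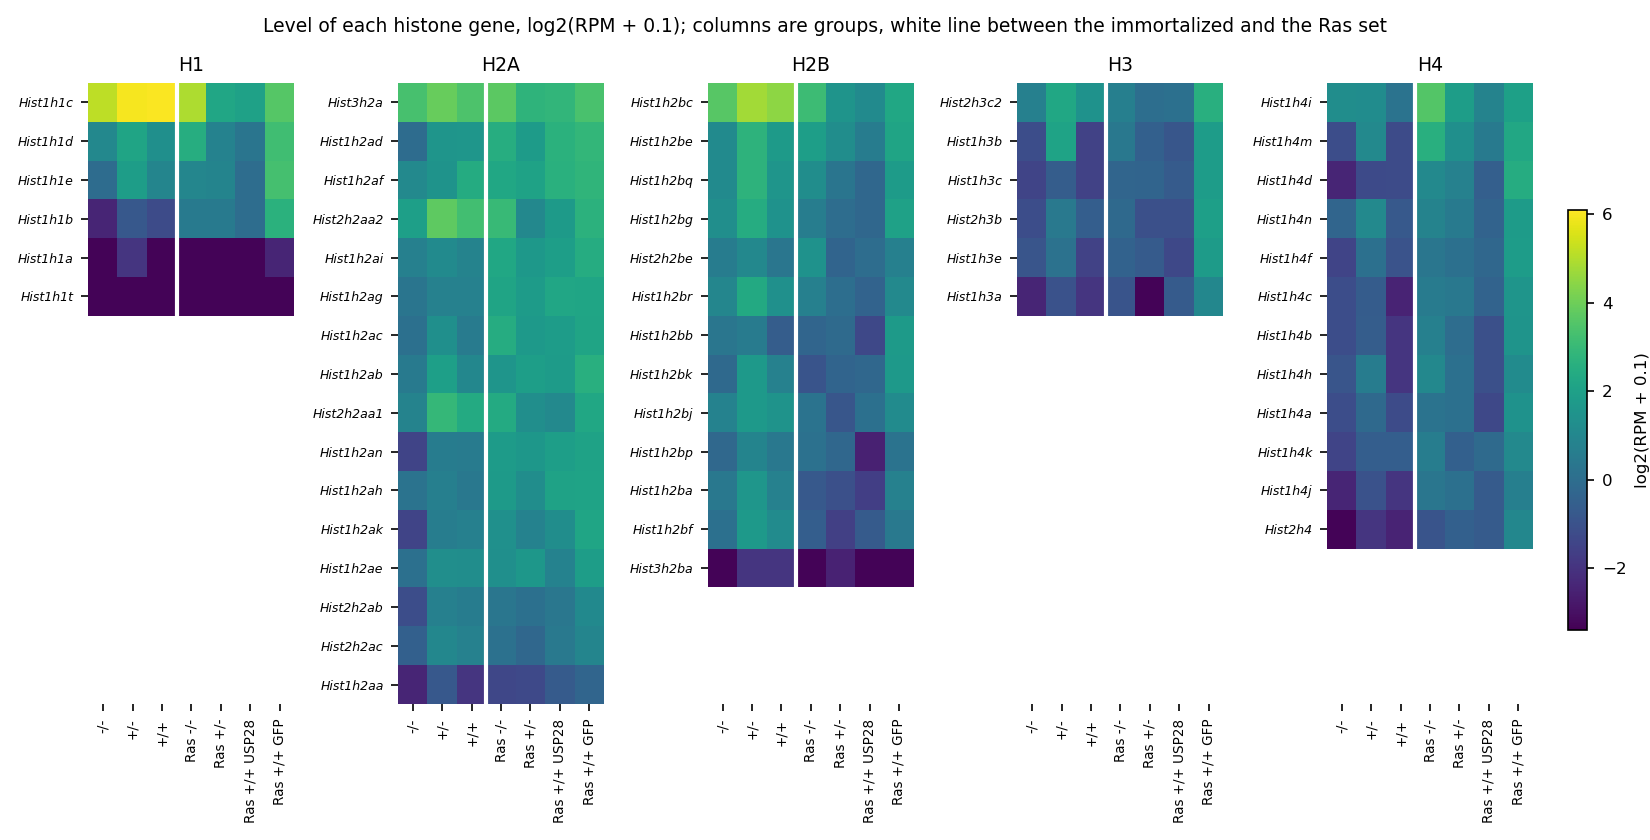
Level of each of the 53 genes as log2(RPM + 0.1), with genes of a class down the page and the 7 groups across. Read along a gene's line, the last column of the Ras set (+/+ with GFP) was the highest of the 4 for 41 genes, and Hist1h1t was at 0 reads in every group.

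The first comparison asked what a USP28 vector changed in Ras +/+ cells. Linker histone, H2B, H3 and H4 genes were lower with USP28, with log2 ratios of -3.50 to -1.57 among the genes called, and no H2A gene was called. Of the 53 genes, 46 were tested; 22 were lower (41.5% of all and 47.8% of those tested) and 0 were higher, against 0.997% lower and 0.0907% higher among all 15444 genes tested. This comparison had few calls in all: 154 genes were lower, and 22 of these (14.3%) were histone genes. The median log2 ratio was -1.58 for the histone genes and 0.01 for all genes tested. Here and below, medians of the histone genes cover all with more than 3 reads in at least 1 of the 2 groups (50 here). They thus include genes under the level filter, and the medians of all genes tested do not. Without the filter on the level 23 histone genes were called, all lower. Of the 46 genes that passed the filter, 25 did so only through their level in Ras +/+ cells.

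Among the H1 genes, 4 of 6 were lower with USP28. Hist1h1e, a linker histone that binds DNA between nucleosomes, was at 0.894 RPM (12 reads) with USP28 and 9.58 RPM (109 reads) in Ras +/+ cells, a log2 ratio of -3.42 ± 0.47 SE (Benjamini-Hochberg adjusted p = 1.60e-15). Hist1h1d, another linker histone, was at 1.12 RPM with USP28 and 8.84 RPM in Ras +/+ cells (log2 ratio -2.98 ± 0.43 SE, Benjamini-Hochberg adjusted p = 2.24e-12). Hist1h1b followed with 0.894 RPM and 6.17 RPM (log2 ratio -2.79 ± 0.48 SE). With USP28 all 3 were down to 15 reads or fewer. Hist1h1c changed less: it was at 4.02 RPM with USP28 and 11.9 RPM in Ras +/+ cells, a log2 ratio of -1.57 ± 0.29 SE. The 2 H1 genes not tested were Hist1h1a, with at most 2 reads in a group, and Hist1h1t.

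The core histone classes differed in how many genes were called, and also in how many were tested only because of Ras +/+. Of the tested genes, 6 of 6 H3, 10 of 12 H4 and 7 of 9 H2B genes passed the filter only through Ras +/+ cells. This held for 0 of 15 H2A genes. Of 6 H3 genes, 5 were lower: Hist2h3c2 was at 0.969 RPM (13 reads) with USP28 and 5.82 RPM (66 reads) in Ras +/+ cells, with a log2 ratio of -2.59 ± 0.47 SE (Benjamini-Hochberg adjusted p = 8.58e-08). Hist1h3e had the largest drop of the class, to 0.298 RPM (4 reads) with USP28, against 3.38 RPM (38 reads) in Ras +/+ cells (log2 ratio -3.50 ± 0.74 SE). The others called were Hist2h3b, Hist1h3b and Hist1h3c, with log2 ratios of -3.34, -2.96 and -2.75. Of 12 H4 genes, 8 were lower, led by Hist1h4d, which fell to 0.596 RPM (8 reads) with USP28, against 5.48 RPM (62 reads) in Ras +/+ cells (log2 ratio -3.20 ± 0.56 SE, Benjamini-Hochberg adjusted p = 6.70e-09). Hist1h4a, Hist1h4b, Hist1h4h, Hist1h4n and Hist1h4f came next, with log2 ratios of -3.14, -2.87, -2.54, -2.33 and -2.22. Of 13 H2B genes, 5 were lower: Hist1h2bb, Hist1h2bg, Hist1h2bq, Hist1h2bk and Hist1h2be, with log2 ratios of -3.46, -2.43, -2.18, -2.06 and -1.59. Hist1h2bb was at 4 reads with USP28, against 37 reads in Ras +/+ cells.

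None of the 16 H2A genes was called with USP28 by the deposited test, and 6 had an unadjusted p under 0.05. Their sum was 54.5 RPM with USP28 and 76.6 RPM in Ras +/+ cells, a log2 ratio of -0.49 with a counting interval of -0.63 to -0.34. The sums of the other classes moved farther: 6.93 RPM with USP28 against 36.8 RPM in Ras +/+ cells for H1, 9.39 against 32.5 RPM for H2B, 3.13 against 22.0 RPM for H3 and 8.64 against 37.0 RPM for H4. H2A genes thus made up 66.0% of all histone RPM with USP28 and 37.4% in Ras +/+ cells. Whether the classes differed in their response was not tested.

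**Figure D3:**
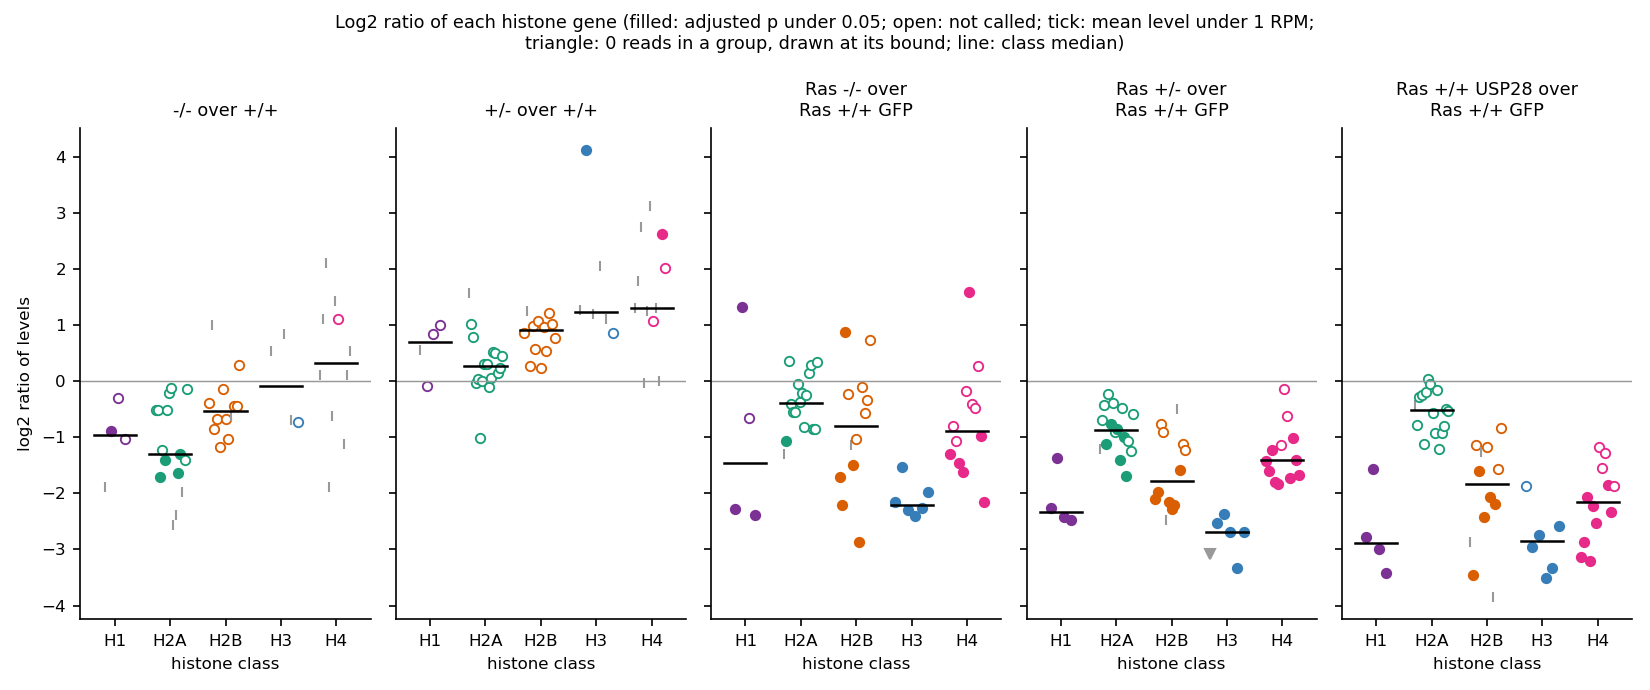
Log2 ratio (vertical axis) of each histone gene in the 5 comparisons, by class, with filled points for genes at an adjusted p under 0.05, ticks for genes under a mean of 1 RPM and a line at the class median. With USP28 the class medians lay at -2.88 for H1, -0.52 for H2A, -1.83 for H2B, -2.86 for H3 and -2.15 for H4.

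The second comparison set Ras -/- against Ras +/+ cells. H3 genes were lower throughout, as were several H4, H2B and H1 genes, while Hist1h1c, Hist1h4i and Hist1h2bc were higher. Of the 53 genes, 48 were tested; 18 were lower (34.0% of all and 37.5% of those tested) and 3 were higher (5.66% and 6.25%), against 12.4% lower and 15.2% higher (27.6% in either direction) among 15868 genes tested. The median log2 ratio was -0.81 for the histone genes and -0.01 for all genes tested. Of the 48 genes tested, 8 passed the filter only through Ras +/+, and without the filter 17 were lower and 3 higher. Among these 8 were 4 of the 6 H3 genes. This comparison, the first and the next one share the Ras +/+ libraries, so a high level there enters all 3.

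All 6 H3 genes were lower in Ras -/- cells, with log2 ratios of -2.40 to -1.53. Hist2h3c2 was at 1.51 RPM (21 reads) in Ras -/- cells and 5.89 RPM (67 reads) in Ras +/+ cells, a log2 ratio of -1.97 ± 0.41 SE (Benjamini-Hochberg adjusted p = 6.03e-06). Hist1h3e was at 0.645 RPM and 3.41 RPM (log2 ratio -2.40 ± 0.56 SE). Summed over the class, H3 was at 5.30 RPM in Ras -/- cells and 22.0 RPM in Ras +/+ cells (log2 ratio -2.06, counting interval -2.45 to -1.68). The H3 genes of Ras -/- cells were thus about 4.16-fold lower as a class.

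The H1 class split in Ras -/- cells. Hist1h1c was higher, at 30.03 RPM (419 reads) in Ras -/- cells and 11.98 RPM (136 reads) in Ras +/+ cells, a log2 ratio of 1.33 ± 0.25 SE (Benjamini-Hochberg adjusted p = 3.81e-06). Hist1h1e and Hist1h1b went the other way: Hist1h1e was at 1.86 RPM in Ras -/- cells and 9.70 RPM in Ras +/+ cells (log2 ratio -2.38 ± 0.38 SE), and Hist1h1b at 1.29 RPM and 6.23 RPM (log2 ratio -2.27 ± 0.43 SE). Hist1h1d, at 5.66 RPM in Ras -/- cells and 8.94 RPM in Ras +/+ cells, was not called. The H1 sum did not show this split, at 38.9 RPM in Ras -/- cells and 36.8 RPM in Ras +/+ cells (log2 ratio 0.07), and without Hist1h1c the log2 ratio of the sum was -1.50.

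The H4 and H2B classes split as well. Hist1h4i rose to 11.7 RPM (163 reads) in Ras -/- cells, against 3.91 RPM (44 reads) in Ras +/+ cells (log2 ratio 1.58 ± 0.32 SE, Benjamini-Hochberg adjusted p = 1.80e-05). The H4 genes Hist2h4, Hist1h4f, Hist1h4d, Hist1h4a and Hist1h4n were lower, with log2 ratios of -2.16, -1.61, -1.46, -1.30 and -0.99. Hist1h2bc was at 8.53 RPM (119 reads) in Ras -/- cells and 4.64 RPM (53 reads) in Ras +/+ cells, a log2 ratio of 0.88 ± 0.32 SE (Benjamini-Hochberg adjusted p = 0.0352). Of the H2B genes, Hist1h2bk, Hist1h2bb, Hist1h2ba and Hist1h2bg were lower, with log2 ratios of -2.87, -2.20, -1.70 and -1.49. With the authors' own adjusted p, from the authors' deposited table, 4 of the calls in Ras -/- cells were lost: Hist1h2bc at 0.0751, Hist1h4n at 0.103, Hist1h4a at 0.0522 and Hist1h2ba at 0.0581. Among 16 H2A genes only Hist1h2ab was called in Ras -/- cells, at 2.87 RPM in Ras -/- cells and 5.98 RPM in Ras +/+ cells (log2 ratio -1.06 ± 0.35 SE).

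The 5 genes with a polyadenylated human counterpart did not move as 1 group in Ras -/- cells. Hist1h1c and Hist1h2bc were higher and Hist1h2bk was lower, at 0.430 RPM (6 reads) in Ras -/- cells and 3.14 RPM (36 reads) in Ras +/+ cells. Hist2h2be, at 2.65 RPM in Ras -/- cells and 1.59 RPM in Ras +/+ cells, and Hist1h2ac, at 5.52 RPM and 4.28 RPM, were not called. The annotated transcripts of Hist1h1c and Hist1h4i, which were higher, ran far beyond the stem-loop. Those of Hist1h1e and Hist1h4d, which were lower, did too. The part of longer transcripts in these levels was not tested.

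**Figure D4:**
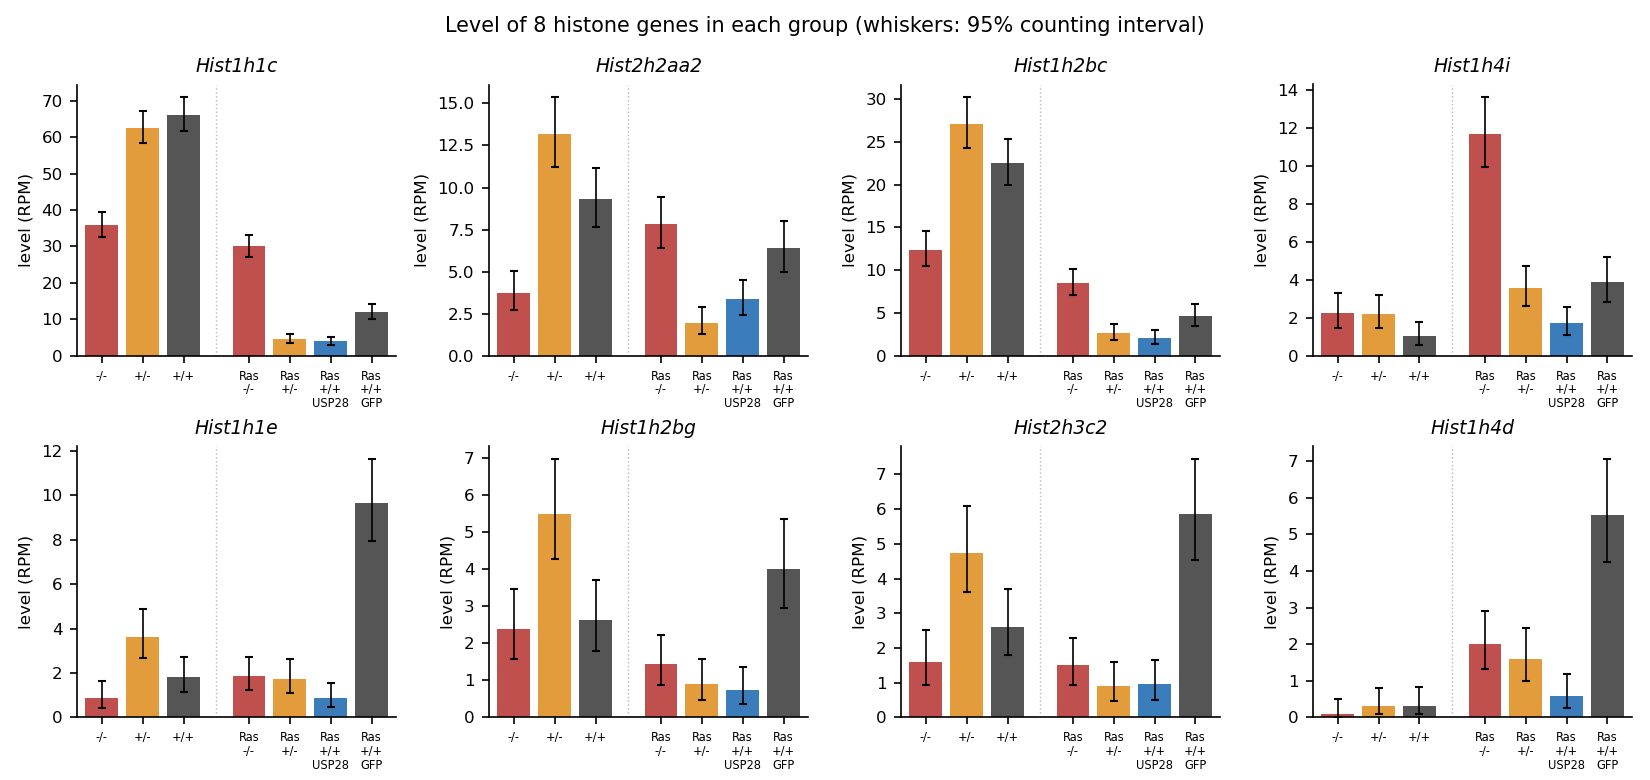
Level in RPM (vertical axes) of 8 histone genes in the 7 groups, with whiskers for the 95% counting interval. In the upper row Hist1h1c, Hist1h2bc and Hist1h4i were higher in Ras -/- than in Ras +/+ cells with GFP, and in the lower row all 4 genes were highest in Ras +/+ cells with GFP among the Ras groups.

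The third comparison set Ras +/- against Ras +/+ cells and had the most calls: 30 of the 53 genes were lower (56.6% of all and 65.2% of the 46 tested), with some in each of the 5 classes, and 0 were higher. Among 15950 genes tested 16.7% were lower and 17.5% higher (34.1% in either direction). The median log2 ratio was -1.39 for the histone genes and 0.01 for all genes tested. Of the 46 genes tested, 21 passed the filter only through Ras +/+, among them all 5 H3 genes tested. Without the filter 30 genes were lower too, but only 28 of them were the same: Hist1h2af and Hist1h2ai were no longer called, at Benjamini-Hochberg adjusted p = 0.0684 and 0.0588.

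All 4 H1 genes tested were lower in Ras +/- cells. Hist1h1e was at 1.75 RPM in Ras +/- cells and 9.68 RPM in Ras +/+ cells (log2 ratio -2.47 ± 0.39 SE, Benjamini-Hochberg adjusted p = 1.70e-10). Hist1h1d and Hist1h1b had log2 ratios of -2.41 and -2.27. Hist1h1c was also lower here, at 4.61 RPM in Ras +/- cells and 11.98 RPM in Ras +/+ cells (log2 ratio -1.38 ± 0.30 SE). Of the H3 genes 5 were lower, led by Hist2h3b at 0.379 RPM (5 reads) in Ras +/- cells and 3.80 RPM (43 reads) in Ras +/+ cells (log2 ratio -3.33 ± 0.68 SE). The next were Hist2h3c2, Hist1h3e, Hist1h3b and Hist1h3c with log2 ratios of -2.69, -2.69, -2.54 and -2.37. Hist1h3a had 0 reads in Ras +/- cells and 22 reads in Ras +/+ cells, at least 8.43-fold lower against a floor of 3 reads over the group. It lay under the level filter and so was not tested here. The authors' own adjusted p for it was 7.51e-06 in the authors' deposited table.

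Of 12 H4 genes 9 were lower in Ras +/- cells, with log2 ratios of -1.83 to -1.01. The largest drops were those of Hist1h4f, Hist1h4d, Hist1h4k, Hist2h4, Hist1h4b and Hist1h4a, at -1.83, -1.79, -1.72, -1.67, -1.60 and -1.42. Hist1h4i was not called, at 3.56 RPM in Ras +/- cells and 3.90 RPM in Ras +/+ cells. Of 13 H2B genes 6 were lower: Hist1h2bj, Hist1h2bk, Hist1h2bg, Hist1h2ba, Hist1h2bb and Hist1h2bq, with log2 ratios of -2.27, -2.20, -2.15, -2.11, -1.99 and -1.59. Of 16 H2A genes 6 were lower, namely Hist2h2aa2, Hist1h2ak, Hist1h2ad, Hist2h2aa1, Hist1h2ai and Hist1h2af, with log2 ratios of -1.70, -1.41, -1.12, -0.995, -0.85 and -0.76. Hist2h2aa2 was at 1.97 RPM in Ras +/- cells and 6.40 RPM in Ras +/+ cells. Hist1h2af and Hist1h2ai, together with Hist1h4c, were not called by the authors' own adjusted p.

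Ras +/- cells differed from Ras +/+ cells in cell type markers as well. The 5 epithelial markers summed to 986 RPM in Ras +/- cells and 0.879 RPM in Ras +/+ cells, mostly from Krt8, Krt14 and Krt18. Of the 5 mesothelial markers, Wt1, Lrrn4, Upk3b and Upk1b were higher, with a sum of 1361 RPM in Ras +/- cells and 0.440 RPM in Ras +/+ cells. Msln went the other way, at 208.9 RPM in Ras +/- cells and 425 RPM in Ras +/+ cells. Their part in the histone levels was not tested. In the USP28 cells the epithelial sum was 1.19 RPM, the sum of the 4 mesothelial markers 0.968 RPM and Msln 466 RPM. In Ras -/- cells these values were 1.36, 1.51 and 5.09 RPM.

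In all, 36 of the 53 genes were called in at least 1 Ras comparison, 14 were lower in all 3, and 41 had a level below that of Ras +/+ in all 3. The same counts were not made over all genes, so these have no background to be judged by. Singly, 27.6% of all genes tested were called in Ras -/- cells, 34.1% in Ras +/- cells and 1.09% with USP28. As all 3 comparisons share the Ras +/+ libraries, the counts over them are not independent of each other. Differences between the other Ras groups were therefore tested directly, with an approximate Wald test on the rebuilt reads. Ras +/+ still entered through the level filter, which took the mean of each group with Ras +/+. As given above, 21 genes in the Ras +/- comparison and 25 with USP28 passed it only through Ras +/+. Among them were all 5 H3 genes tested in Ras +/- cells and all 6 with USP28. In Ras -/- against Ras +/- cells, 9 of the 53 genes were higher (17.0% of all and 19.6% of the 46 tested) and 0 were lower, against 11.3% higher and 9.52% lower among all genes tested. The largest difference was that of Hist1h1c, at 30.03 RPM in Ras -/- cells and 4.61 RPM in Ras +/- cells (log2 difference 2.69 ± 0.35 SE, Benjamini-Hochberg adjusted p = 9.38e-13). Hist2h2aa2, Hist2h2be, Hist1h1d, Hist1h4i, Hist1h2bc, Hist1h4m, Hist2h2aa1 and Hist3h2a were also higher in Ras -/- cells, by log2 differences of 1.96 to 0.92. No H3 gene was called between these groups, and 0 had an unadjusted p under 0.05.

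In the USP28 cells against Ras -/- cells, 13 of the 53 genes were lower (24.5% of all and 28.3% of the 46 tested) and 0 were higher, against 9.28% lower and 7.14% higher among all genes tested. Hist1h1c differed most, at 4.02 RPM in the USP28 cells and 30.03 RPM in Ras -/- cells (log2 difference -2.89 ± 0.35 SE, Benjamini-Hochberg adjusted p = 5.29e-15). Hist1h4i followed, at 1.71 RPM in the USP28 cells and 11.7 RPM in Ras -/- cells (log2 difference -2.74 ± 0.42 SE). Hist1h1d, Hist1h4h, Hist1h4m, Hist1h2bc, Hist1h4b, Hist1h4d, Hist1h2bq, Hist2h2be, Hist1h2be, Hist2h2aa1 and Hist2h2aa2 were lower too, by log2 differences of -2.30 to -1.21. Again 0 H3 genes were called and 0 had an unadjusted p under 0.05. With USP28 and in Ras -/- cells their sums were 3.13 RPM (42 reads) and 5.30 RPM (74 reads). In simulated data 1.33% of unchanged genes had an unadjusted p under 0.05 in this test, and 1.14% in Ras -/- against Ras +/-. Both tests are thus strict, and a lack of H3 calls does not show equal levels.

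The fourth comparison set immortalized -/- against +/+ cells. Fewer histone genes were called, and those called were H2A genes and Hist1h1c. Of the 53 genes, 27 were tested; 5 were lower (9.43% of all and 18.5% of those tested) and 0 were higher, against 2.93% lower and 1.29% higher (4.21% in either direction) among 16727 genes tested. The median log2 ratio was -0.62 for the 45 histone genes with a ratio, tested or not, and 0.07 for all genes tested. Of the 27 genes tested, 7 passed the filter only through +/+, and 4 genes were lower without it.

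Hist2h2aa2 was at 3.76 RPM (43 reads) in -/- cells and 9.29 RPM (114 reads) in +/+ cells, a log2 ratio of -1.30 ± 0.36 SE (Benjamini-Hochberg adjusted p = 0.00808). Its neighbour Hist2h2aa1, whose coding sequence is identical, was at 1.69 RPM and 5.23 RPM (log2 ratio -1.63 ± 0.45 SE), so reads of this pair cannot be assigned with certainty. Hist1h2ad and Hist1h2af had log2 ratios of -1.71 and -1.41. Of the other H2A genes, 8 were tested and not called, and 4 lay under the level filter. Of these 4, Hist1h2ak, Hist1h2an and Hist2h2ab had log2 ratios of -2.56, -2.38 and -1.98 in the authors' deposited table. Their unadjusted edgeR p there was 0.00187, 0.00471 and 0.00792, at 3, 3 and 4 reads in -/- cells. Hist1h2aa had too few reads for a ratio. Hist1h1c was at 35.9 RPM (408 reads) in -/- cells and 66.1 RPM (813 reads) in +/+ cells (log2 ratio -0.88 ± 0.26 SE, Benjamini-Hochberg adjusted p = 0.0256). No H2B, H3 or H4 gene was called, but only 10 of 13 H2B, 1 of 6 H3 and 1 of 12 H4 genes were tested. Of the genes tested in these 3 classes, 1, 0 and 1 had an unadjusted p under 0.05.

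The fifth comparison set immortalized +/- against +/+ cells, the comparison with the widest spread between libraries. Of the 53 genes, 34 were tested; 2 were higher (3.77% of all and 5.88% of those tested) and 0 were lower, against 5.04% higher and 3.21% lower (8.25% in either direction) among 17035 genes tested. Of the 34 genes tested, 3 passed the filter only through their level in +/- cells, and both called genes, Hist1h3b and Hist1h4m, are among these. The level was above that of +/+ for 45 of the 53 genes. The median log2 ratio was 0.85 for the 49 histone genes with a ratio, tested or not, against -0.00 for all genes tested. Hist1h3b was at 4.21 RPM (52 reads) in +/- cells and 0.243 RPM (3 reads) in +/+ cells, a log2 ratio of 4.11 with a counting interval of 2.47 to 6.42 (Benjamini-Hochberg adjusted p = 3.12e-06). All 6 H3 genes had their highest level of the immortalized set in +/- cells. In the authors' deposited table the log2 ratio was 2.06 for Hist1h3e (unadjusted p = 0.0404), 1.27 for Hist1h3a, 1.203 for Hist1h3c, 1.11 for Hist2h3b and 0.85 for Hist2h3c2. Of these 5, Hist2h3c2 alone reached the level filter, at 4.73 RPM in +/- cells and 2.62 RPM in +/+ cells, and it was not called. Hist1h4m was at 1.99 RPM (25 reads) in +/- cells and 0.323 RPM (4 reads) in +/+ cells (log2 ratio 2.62 ± 0.83 SE, Benjamini-Hochberg adjusted p = 0.0245).

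Epithelial markers summed to 262 RPM in immortalized +/- cells and 5.82 RPM in +/+ cells, and mesothelial markers to 1554 RPM and 24.0 RPM; their part in the histone levels was not tested. Tested directly, -/- cells had 2 genes lower than +/- cells (3.77% of all and 7.41% of the 27 tested) and 0 higher, against 2.17% lower, 1.24% higher and 3.41% in either direction among all genes tested. These were Hist2h2aa1, with a log2 difference of -2.14 ± 0.58 SE, and Hist2h2aa2, with -1.80 ± 0.52 SE.

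The genotype effects were also compared between the sets, each against its own +/+ cells. For +/-, 14 of the 53 genes had a lower log2 ratio in Ras than in immortalized cells (26.4% of all and 43.8% of the 32 tested) and 0 had a higher one, against 6.35% and 6.8% of all genes tested (13.1% in either direction). The differences ran from -6.37 for Hist1h3b to -1.87 for Hist1h2be, and 7 of the 14 genes were H2B genes. Among the 14, Hist2h3c2, Hist1h2bg, Hist1h2bk, Hist1h2ba, Hist1h2bj, Hist1h2br and Hist1h3b lay under 1 RPM in Ras +/- cells. They passed the level filter of the Ras set only through Ras +/+ cells. Hist1h3b, Hist1h4m and Hist1h4n passed that of the immortalized set only through +/- cells. Both routes favour a negative difference, so the count for +/- is not free of the filter. For -/-, 4 genes had a higher log2 ratio in Ras than in immortalized cells (7.55% of all and 15.4% of the 26 tested) and 0 had a lower one, against 11.4% and 9.22% of all genes tested (20.6% in either direction). These 4 were Hist1h1c, Hist2h2aa1, Hist1h2bc and Hist2h2aa2.

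A further 7 of the 14 genes missing by ID were named in the deposited descriptions under older IDs: Hist1h2bh, Hist2h2bb and the H3 genes Hist1h3d, Hist1h3f, Hist1h3g, Hist1h3h and Hist1h3i. Of these, 5 were lower in Ras -/- cells, 7 in Ras +/- cells and 5 with USP28. Hist2h2bb was at 1.43 RPM in Ras -/- cells, 1.22 RPM in Ras +/- cells and 1.04 RPM with USP28, against 9.66, 9.65 and 9.55 RPM in the Ras +/+ cells of each comparison, with log2 ratios of -2.75, -2.99 and -3.19. With these 7 added, 27 of 60 genes were called with USP28, 26 in Ras -/- cells and 37 in Ras +/- cells, and 3 of the 26 were higher. In immortalized +/- cells Hist1h3d was called higher, at 2.76 RPM against 0.660 RPM in +/+ cells (log2 ratio 2.06).

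Histone genes of 1 class are close copies. Of the 53 genes, 32 were at least 97% identical in their coding sequence to another gene of the set, including all 6 H3 genes, and the H1 genes were the least alike, at 67.3% to 84.9% to their nearest relative. Hist2h2aa1 and Hist2h2aa2, Hist1h2bq and Hist1h2br, and Hist1h4m and Hist1h4n were identical pairs. How the authors assigned reads that match several copies, and whether strand was used, is not given in the sources used here, so the values of single H2A, H2B, H3 and H4 genes are less certain than those of their classes. Without the 32 genes the summed log2 ratio was -1.78 with USP28, -1.40 in Ras +/- cells and -0.01 in Ras -/- cells, against -1.30, -1.28 and -0.29 with them.

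Testis-specific histone genes among the 53 served as a check on cell type. Hist1h1t, the linker histone of spermatocytes, had 0 reads in all 7 groups, which allows up to 0.215 to 0.264 RPM at a floor of 3 reads. Hist1h2aa was at 0.703 RPM or less. Hist1h2ba was at 0.502 RPM in Ras -/- cells and 0.378 RPM in Ras +/- cells, against 1.63 RPM in Ras +/+ cells, and was called lower in both, in Ras -/- cells not by the authors' own adjusted p, which is 0.0581 in the authors' deposited table. With USP28 it was at 0.223 RPM (3 reads), under the level filter and so not tested here. The authors' deposited table gives it a log2 ratio of -2.86 there, with an adjusted p of 0.0177. In the immortalized set it was at 1.24 RPM in -/- cells and 2.93 RPM (36 reads) in +/- cells, against 1.62 RPM in +/+ cells, and was not called. This germ line gene was thus highest, of all 7 groups, in immortalized +/- cells.

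Called genes were found with and without an annotated transcript running far beyond the stem-loop. With USP28, 9 of 19 genes whose transcripts end near the stem-loop were lower, 9 of 17 with a longer transcript and 4 of 17 without a stem-loop in the annotation. In Ras -/- cells the counts were 8, 6 and 4, and the 3 genes that were higher were 2 with a longer transcript and Hist1h2bc, for which no stem-loop was found. In Ras +/- cells they were 12, 9 and 9. By promoter, 17 of the 41 genes with CCAAT and 5 of the 8 without it were lower with USP28, and 12 of 31 with TATAAA and 10 of 18 without it.

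Of 14 genes in the tables that make or process histone mRNA, 2 (14.3%) were lower in Ras -/- cells and 3 (21.4%) in Ras +/- cells, against 12.4% and 16.7% of all genes tested. With USP28, where 1.09% of all genes were called, 0 were called by the deposited test, by the authors' own adjusted p or at an unadjusted p under 0.05, and the median log2 ratio was -0.03. Slbp, the stem-loop binding protein, was lower in Ras -/- cells, at 56.3 RPM against 87.4 RPM in Ras +/+ cells (log2 ratio -0.63 ± 0.22 SE, Benjamini-Hochberg adjusted p = 0.0175). It was also lower in Ras +/- cells, at 51.7 RPM (log2 ratio -0.76 ± 0.22 SE), and was at 85.6 RPM with USP28 (log2 ratio -0.03 ± 0.19 SE). Eri1, an exonuclease that trims the 3′ end of histone mRNA, was lower in Ras -/- cells (log2 ratio -0.58). Casp8ap2 and Cpsf2, which take part in 3′ end processing, were lower in Ras +/- cells, with log2 ratios of -0.69 and -0.53. The calls of Eri1 and Cpsf2 were lost with the authors' own adjusted p (0.0691 and 0.0800 in the authors' deposited table). Npat, the coactivator of histone gene transcription, was at 51.7 RPM in Ras -/- cells, 60.7 RPM in Ras +/- cells and 52.1 RPM with USP28, against 53.1 to 53.2 RPM in Ras +/+ cells, and was not called.

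Of 20 S-phase genes, 2 (10%) were called in Ras -/- cells and 4 (20%) in Ras +/- cells, against 27.6% and 34.1% of all genes tested. With USP28, 0 of them were called by the deposited test, by the authors' own adjusted p or at an unadjusted p under 0.05, against 1.09% of all genes called, and their median log2 ratio was -0.04. In Ras -/- cells Prim1, a primase subunit, was higher and Rrm2, a ribonucleotide reductase subunit, was lower, with log2 ratios of 0.83 and -0.60. In Ras +/- cells Mcm7, part of the replicative helicase, was higher (0.66), and the cyclin genes Ccna2 and Ccne2 and Rrm2 were lower (-1.07, -0.53 and -0.54). Of these, Ccne2 and Rrm2 in Ras +/- cells were not called by the authors' own adjusted p (0.102 and 0.0680 in the authors' deposited table). The median log2 ratio of the list was -0.15 in Ras -/- and 0.05 in Ras +/- cells.

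Histone variant genes are in many cases expressed outside S phase from polyadenylated mRNA. In Ras -/- cells 30% of those tested were called, near the 27.6% of all genes. All of them were higher, against 15.2% higher among all genes. In Ras +/- cells 20% were higher and 10% lower, against 17.5% and 16.7% of all genes tested. Of 10 in the tables, H2afy2, H2afv and H2afx were higher in Ras -/- cells: H2afy2, a macroH2A gene, was at 52.5 RPM against 16.6 RPM in Ras +/+ cells (log2 ratio 1.66 ± 0.24 SE, Benjamini-Hochberg adjusted p = 1.35e-10), and H2afv and H2afx had log2 ratios of 1.09 and 0.92. H2afy2 and H2afv were also higher in Ras +/- cells, with log2 ratios of 1.53 and 0.73. The variant linker histone gene H1fx was lower there, at 2.11 RPM against 16.1 RPM in Ras +/+ cells (log2 ratio -2.93 ± 0.36 SE). Among 10 histone chaperone genes, Asf1b and Daxx were lower in Ras -/- cells (-1.09 and -0.60 on the log2 scale). That was 20% of the list, against 12.4% lower among all genes tested. In Ras +/- cells Daxx and Rbbp4 were lower (-0.70 and -0.52) and Chaf1b was higher (0.63). There the shares were 20% lower and 10% higher, against 16.7% and 17.5% of all genes tested. The calls of Daxx in Ras -/- and of Rbbp4 in Ras +/- cells were lost with the authors' own adjusted p (0.0612 and 0.0768 in the authors' deposited table). With USP28, 0 genes of either list were called by the deposited test, by the authors' own adjusted p or at an unadjusted p under 0.05. In the immortalized set 0 genes of these 4 lists were called in either comparison, with 4 at an unadjusted p under 0.05 in -/- cells and 6 in +/- cells.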

How the data were processed

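Per the submitters' processing notes, reads passed CASAVA and FastQC, Bowtie 0.12.8 aligned them to mm9 and edgeR compared the groups. The counter, its annotation, its handling of multiply matching reads and its use of strand are not given in the sources used here. Per the file headers, the authors deposited, for each comparison, a p-value and 2 log2 values, the concentration (mean log2 share of the reads) and the ratio with +/+ on top. For Ras cells an adjusted p-value of the authors' own is also deposited. There are no single-library values.

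Here the ratios were turned to the named group over +/+, levels were rebuilt from concentration and ratio, and depth was read from the steps between low values: among values below 20 reads, 80.8% to 100% came out whole within 0.1. The deposited p-values were adjusted by Benjamini-Hochberg over genes at a mean of at least 1 RPM. Differences between ratios were tested with an approximate Wald test, with 0.5 reads added. For these tests the mean with +/+ had to reach 1 RPM in both comparisons. A group at 0 reads was set to a floor of 3 reads, and 1 to 3 reads got a 95% counting interval. Tested on simulated data, the steps recovered 97% (immortalized -/-), 85% (immortalized +/-), 100% (Ras -/-), 100% (Ras +/-) and 98.0% (USP28) of genes changed 4-fold, but 44%, 6%, 77%, 76% and 85.7% of those changed 2-fold. The changed genes were drawn only from those averaging 5 RPM or more. Few histone genes reach 5 RPM, so these shares do not give the recovery for most of them.

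Genes named with values are the highest of each class, up to 6 called genes per class and comparison by size of ratio, 5 with a polyadenylated human counterpart, and called genes of the companion lists. The members and lists were chosen with earlier results of these data known. Counts were computed with Python 3.11.15, pandas 2.3.3, scipy 1.17.1 and biopython 1.88.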

Additional observations from a re-analysis of the deposited data

Results flagged for a closer look

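For 18 pairs of gene and genotype the effect against +/+ differed between Ras and immortalized cells in a test of the difference itself (approximate Wald test, Benjamini-Hochberg adjusted p under 0.05). The 14 for +/- were 43.8% of the 32 histone genes tested, against 13.1% of all genes. The 4 for -/- were 15.4% of the 26 tested, below the 20.6% of all genes. For +/-, the Ras log2 ratio minus the immortalized one was -6.37 for Hist1h3b, -3.49 for Hist2h3c2, -3.49 for Hist1h4m, -3.43 for Hist1h1e, -3.32 for Hist1h4n, -3.22 for Hist1h1d, -3.16 for Hist1h2bg and -3.09 for Hist1h2bk. It was -2.84 for Hist1h2ba, -2.76 for Hist1h2bq, -2.42 for Hist1h2bj, -2.18 for Hist2h2aa2, -2.11 for Hist1h2br and -1.87 for Hist1h2be. All 14 were lower in Ras +/- than in Ras +/+ cells by their fitted ratio, and higher in immortalized +/- than in +/+ cells. The value for Hist1h3b rests on 3 reads in immortalized +/+ cells. Several of the 14 passed the level filter only through Ras +/+ or immortalized +/- cells, as named above, which favours a negative difference. For -/-, the same difference was 2.20 for Hist1h1c, 1.75 for Hist2h2aa1, 1.73 for Hist1h2bc and 1.58 for Hist2h2aa2, each above +/+ in Ras cells and below it in immortalized cells. In Ras -/- cells Hist2h2aa1 and Hist2h2aa2 lay only slightly above Ras +/+, at log2 ratios of 0.14 and 0.29, and were not called.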

How the results depend on the processing

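Most counts of called genes depended on the level filter. At a mean level of at least 5 RPM the count was 2 in immortalized -/-, 0 in immortalized +/-, 4 in Ras -/-, 5 in Ras +/- and 2 with USP28, as few histone genes reach that level, and it was 1 in immortalized -/- against +/-, 3 in Ras -/- against +/-, 1 with USP28 against Ras -/- and 0 for the +/- effect between the sets. With the dispersion doubled it was 0 in immortalized -/-, 1 in immortalized +/-, 0 in immortalized -/- against +/-, 6 with USP28 against Ras -/- and 2 for the -/- effect between the sets. At a threshold of 0.01 it was 1 in immortalized -/-, 1 in immortalized +/-, 1 in immortalized -/- against +/-, 5 in Ras -/- against +/- and 5 with USP28 against Ras -/-. Single calls were lost in 33 of 122 cases with the dispersion doubled, 37 at 0.01, 11 without the filter, 7 of 73 with the authors' adjusted p and 1 of 122 on centring, and none changed direction. The summed log2 ratio of all histone genes was, without the genes with a polyadenylated human counterpart, -0.65 in immortalized -/-, 0.66 in immortalized +/- and -0.58 in Ras -/-. Without the gene of each class with the highest mean RPM, not divided by length (Hist1h1c, Hist3h2a, Hist1h2bc, Hist2h3c2 and Hist1h4i), it was 0.69 in immortalized +/- and -0.71 in Ras -/-. With the genes found by description it was -0.40 in Ras -/- and -1.39 in Ras +/-. Without genes at least 97% identical to another, an alternative chosen after seeing the data like the one before, it was 0.18 in immortalized +/-, -0.0082 in Ras -/-, -1.40 in Ras +/- and -1.78 with USP28, the H2A sum in Ras -/- turned to 0.049, and no H3 gene was left. Where no reason is given, the cause was not tested. No paired analysis was possible because the tables hold no values of single libraries, and for the same reason no library could be left out. Depth limits the rest: the median SE of a histone gene's log2 ratio was 0.43 to 0.53, and many calls rest on fewer than 20 reads in 1 group.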
